A study of Mus musculus with 4 samples.

Results

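The genes described here handle foreign and reactive compounds: epoxide hydrolases, efflux pumps of the ATP-binding cassette (ABC) family, the aryl hydrocarbon receptor with its partners and targets, the transcription factor NRF2 with its inhibitor and targets, the enzymes that make and use glutathione, and aldehyde dehydrogenases. They are 41 genes of the 36163 gene names on the array and are read by 57 of its 55681 probes. The members were taken by gene name, and every probe with such a name was kept apart. The set was chosen by function with earlier results in view, and its leading genes were selected on the measured rises of Abcb1b and Ephx1, which were among the largest with both inhibitors. Those rises are therefore given as a description.

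RNA came from E14Tg2A, a mouse embryonic stem cell line of strain 129/Ola, and was read on 4 single-colour arrays. The ES array held undifferentiated cells at day 0 of differentiation, grown in serum with leukaemia inhibitory factor (LIF). The ELA array held epiblast-like aggregates, which formed over 2 days in a serum-free minimal medium with N2 and B27. The AZA array held aggregates formed with 50 nM 5-azacytidine, an inhibitor of DNA methyltransferases, and the CHQ array held aggregates formed with 100 µM 5-carboxy-8-hydroxyquinoline, an inhibitor of lysine demethylases. Both media contained 0.05 mM β-mercaptoethanol, a thiol reductant, so no group was free of it. Serum and LIF were present only for ES cells. Each array held RNA pooled from 3 experiments on this 1 line, and 1 array per group leaves no replicate, so a difference is one between arrays and carries no p-value.

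The ES and ELA arrays lay on the first slide, and the AZA and CHQ arrays lay on the second. ELA against ES and CHQ against AZA were therefore compared within a slide, whereas in AZA or CHQ against ELA the slide and the inhibitor cannot be told apart. Local background had a median of 59 and 77 intensity units on the first slide and of 14 and 13 on the second. On the first slide 55.1% to 60.6% of gene spots stood well above background, and on the second 69.1% to 69.2% did. Both inhibitor comparisons use the same ELA array, and so does ELA against ES, so an error on that array would enter all of them. All 8 pluripotency markers were well above background on every array. Pou5f1 was bright throughout, with log2 intensities of 14.95, 14.46, 14.05 and 13.56 on ES, ELA, AZA and CHQ, while other markers changed.

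Foreign compounds are handled in steps. Cytochrome P450 enzymes such as Cyp1a1 oxidise them, epoxide hydrolases add water to the reactive epoxides that result, glutathione S-transferases join them to the tripeptide glutathione, and ABC transporters pump the products out of the cell at the cost of ATP. The aryl hydrocarbon receptor, bound to a ligand and paired with Arnt, turns on Cyp1a1 and its relatives through the xenobiotic response element. NRF2, encoded by Nfe2l2, is held at a low level by Keap1 until oxidants or electrophiles modify Keap1, and then acts through antioxidant response elements. ABC transporters of the Abcb1 and Abcg2 kind also pump dyes and drugs out of stem cells.

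Ephx1 and the P-glycoprotein genes are shown first by the sequences behind the measurements. Ephx1 is read by 2 probes on the minus strand of chromosome 1, at chr1:182924124-182924183 for probe 1 and chr1:182919689-182919748 for probe 2 (build mm9, the build of the array). Abcb1a and Abcb1b, the pair of mouse genes for the drug pump P-glycoprotein, are read at chr5:8748075-8748134 and chr5:8865925-8865984 on the plus strand. The first 30 bases of each 60-base probe are printed to show that these probes are distinct sequences.
Ephx1 probe 1: tttcaagaaacatttattccctgacccctc
Ephx1 probe 2: tcgccccactgcatagctgtgttaagctac
Abcb1a probe: actcagacatgggcacctgagttcagatcc
Abcb1b probe: tccaggctggagcaaagcgctcatgagctg
Among the full probes of Abcb1a, Abcb1b and their relative Abcb4, the longest run of bases shared by any pair was 7, and among the probes of Ephx1 and Ephx2 it was 6.

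AZA acts on the methylation of cytosine, which in mammals sits mostly in CG dinucleotides, so the bases upstream of these genes are printed with every CG in capitals. RefSeq promoter windows (build GRCm38.p6) were matched for 33 of the 41 genes. The stretches run over the 250 bases before the annotated start, at chr1:181017570-181017819 on the minus strand for Ephx1, chr5:8566841-8567090 on the plus strand for Abcb1a and chr5:8797897-8798146 on the plus strand for Abcb1b.
Ephx1 upstream: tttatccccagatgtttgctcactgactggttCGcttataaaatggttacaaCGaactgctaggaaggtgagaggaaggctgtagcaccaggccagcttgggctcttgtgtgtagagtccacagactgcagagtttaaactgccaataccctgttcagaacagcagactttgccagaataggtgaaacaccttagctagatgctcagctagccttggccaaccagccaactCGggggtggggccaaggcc
Abcb1a upstream: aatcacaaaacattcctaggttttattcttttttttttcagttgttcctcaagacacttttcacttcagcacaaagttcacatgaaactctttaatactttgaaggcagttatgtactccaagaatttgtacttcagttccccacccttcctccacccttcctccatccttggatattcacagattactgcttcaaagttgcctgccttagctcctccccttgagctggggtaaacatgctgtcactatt
Abcb1b upstream: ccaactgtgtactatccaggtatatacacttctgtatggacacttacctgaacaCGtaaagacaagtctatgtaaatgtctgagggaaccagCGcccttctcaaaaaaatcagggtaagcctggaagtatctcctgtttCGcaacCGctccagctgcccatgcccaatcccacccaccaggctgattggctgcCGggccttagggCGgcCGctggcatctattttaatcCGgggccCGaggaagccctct
These windows hold 3 CG dinucleotides for Ephx1, 0 for Abcb1a and 9 for Abcb1b. Over the 44 windows of all matched members the median was 10 and the range 0 to 41, and over all 32851 windows of the RefSeq table the median was 6 with quartiles of 2 and 16. The 9 matched genes that rose with both inhibitors had a median of 5 and a range of 0 to 17. Methylation itself was not measured on these arrays.

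The core of the antioxidant response element, searched as TGACNNNGC on both strands of the 250 bases, stood in the windows of 8 members, in 9 of 44 windows (20.5%) against 10.2% of all windows. Those genes were Abcc4, Arnt, Nfe2l2, Txnrd1, Gclm, Gsta3, Gstm5 and Mgst1. The core of the xenobiotic response element, searched as GCGTG on both strands, stood in 22 of 44 windows (50%) against 28.2% of all windows, and in 17 genes. Matches are given as letters in a window, without a claim that a factor binds there. Of the 8 genes with the antioxidant core, Gsta3 (both probes) and Arnt (probe 1) rose with both inhibitors while Gclm and Mgst1 fell with both. The windows of Gsta3, Gclm and Mgst1 are printed with the match in capitals. The Gsta3 window is chr1:21240335-21240584, the Gclm window chr3:122245307-122245556 and the Mgst1 window chr6:138140277-138140526, all on the plus strand of GRCm38.p6.
Gsta3 upstream: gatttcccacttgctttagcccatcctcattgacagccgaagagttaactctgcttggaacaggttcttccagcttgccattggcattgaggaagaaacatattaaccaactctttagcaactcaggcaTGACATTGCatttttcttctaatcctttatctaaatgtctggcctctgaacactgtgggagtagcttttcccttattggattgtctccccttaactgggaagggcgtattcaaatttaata
Gclm upstream: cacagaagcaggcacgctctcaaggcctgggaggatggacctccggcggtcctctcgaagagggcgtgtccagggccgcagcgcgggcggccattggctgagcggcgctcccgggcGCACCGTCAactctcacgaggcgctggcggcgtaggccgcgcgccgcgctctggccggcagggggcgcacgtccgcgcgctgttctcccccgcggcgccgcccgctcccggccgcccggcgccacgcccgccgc
Mgst1 upstream: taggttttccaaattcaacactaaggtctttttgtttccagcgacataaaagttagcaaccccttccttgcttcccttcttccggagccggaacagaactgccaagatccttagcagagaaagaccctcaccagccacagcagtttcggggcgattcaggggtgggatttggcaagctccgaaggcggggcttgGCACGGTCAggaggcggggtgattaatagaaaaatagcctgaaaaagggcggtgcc
In Gsta3 the motif reads on the printed strand, and in Gclm and Mgst1 on the opposite strand. The same windows hold 2 CG dinucleotides for Gsta3, 41 for Gclm and 10 for Mgst1.

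In the values that follow, a level is the normalised log2 intensity of a probe, and a difference is a log2 difference between arrays. A probe was said to rise or fall when the difference was at least 1 log2 unit, its mean level over both arrays was at least 7.5 and at least 1 of the arrays had it well above background. A probe under the last 2 limits was not measured in that comparison. Of the 57 member probes, 50 probes of 37 genes were well above background on all 4 arrays and 1 was so on none. The pooled SD of repeat spots on 1 array was 0.12 to 0.17 log2 units, a spread of spotting and reading and not of cultures.

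From ES to ELA, 51 member probes were measured, 2 rose and 10 fell. Over all probes of the array, 4.08% rose and 5.62% fell, against 3.92% and 19.6% of the measured member probes. The leading genes were selected on rises over this same ELA array, so nothing is read from the falling share. The probes that fell belong to Ephx2, Abcb1a, Abcb1b, Cyp1b1, Nqo1, Gsta3, Gpx4 and, with 1 of 2 probes each, Ephx1 and Aldh3a1. Both that rose belong to Mgst1. The median difference of the member probes was -0.18, and that of all probes was -0.03. With spike-in scaling 0 member probes rose and 21 fell, beside 1.36% and 18.2% of all probes.

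With AZA against ELA, 50 member probes were measured, 21 probes of 16 genes rose and 3 probes of 2 genes fell. These counts are 42% and 6% of the measured member probes, while over all probes 14.1% rose and 12.2% fell. With CHQ against ELA, 52 were measured, 18 probes of 15 genes rose and 6 probes of 5 genes fell, which are 34.6% and 11.5% beside 14.2% and 12.7% over all probes. The member medians were 0.73 and 0.46, those of all probes -0.10 and -0.12. Since the set was chosen with the rises of its leading genes in view, nothing is read from the rising shares. The balance depends on the scaling. When the arrays were scaled on spike-in controls, 12 member probes rose and 5 fell with AZA, and 11 rose and 9 fell with CHQ. Over all probes 10.3% then rose and 23.1% fell with AZA, and 8.57% rose and 32.7% fell with CHQ.

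Between the inhibitors on the second slide, CHQ against AZA, 52 member probes were measured, 4 rose and 7 fell. They are 7.69% and 13.5% of the measured member probes, beside 5.01% and 4.63% over all probes. Abcb1b, Abcc3, Cyp1a1 and Aldh1a1 were higher with CHQ, and Ephx2, Arnt, Gsta3, Gstm5 and Gstp1 were higher with AZA. The median was -0.28 for the members and -0.03 for all probes, and that of the members was -0.15 with no filter on dim probes and -0.18 with 1 probe per gene. With spike-in scaling and with 75th percentile scaling, 2 member probes rose and 9 fell, while over all probes 3.79% rose and 6.47% fell with the former and 5.51% and 5.65% with the latter. With 1 probe per gene, 4 rose and 4 fell, and no share over all probes was computed for this setting, so nothing is read from that count.

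Genes with a probe that passed the rule upwards with AZA and with CHQ were Ephx1, Ephx2, Abcb1a, Abcb1b, Abcc3, Abcc5, Arnt, Nqo1, Gsta3, Gpx2 and Gpx3, as well as Aldh3a1 with 1 of its 2 probes. Gclm and Mgst1 passed downwards with each. These comparisons share the ELA array with each other and with ELA against ES, so an error on it would move a probe the same way in both, and the shared names are not read as a result. Ephx1, Abcb1b and Gpx3 were the 3 genes with a probe that stood at least 1 log2 unit above both untreated arrays with each inhibitor. No share over all probes is set beside this count, and Ephx1 and Abcb1b were selected on their rises. It is therefore a description only.

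**Figure D1:**
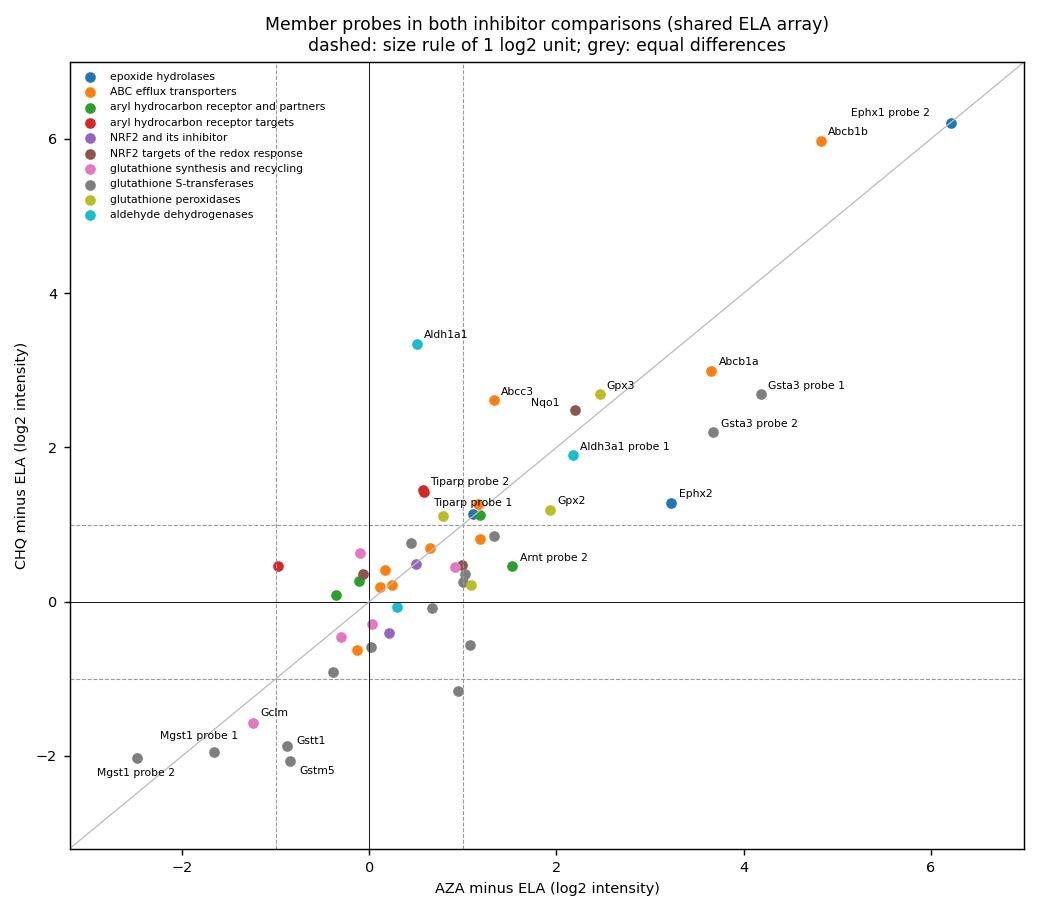
Difference of each member probe from ELA with AZA (x axis) and with CHQ (y axis), in log2 intensity, for probes measured in at least 1 of these comparisons, coloured by role, with dashed lines at 1 log2 unit and a grey line of equal differences. Ephx1 probe 2 (6.21 and 6.21) lies far up the grey line, and Abcb1b (4.83 and 5.98) lies above that line. Aldh1a1 is plotted far above the line at 3.35 with CHQ, against an ELA value not well above background. Mgst1, Gclm, Gstm5 and Gstt1 lie at the lower left.

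Microsomal epoxide hydrolase, encoded by Ephx1, takes up water into epoxides of foreign compounds. Its probe 2 had levels of 11.67 on ES, 8.87 on ELA, 15.09 on AZA and 15.08 on CHQ. The ELA array was the lowest and both inhibitor arrays lay together above ES. From ES to ELA the signal was 6.93-fold lower, and it was 74.1-fold higher with AZA and 73.8-fold higher with CHQ than on ELA. Probe 1 had levels of 9.73, 9.38, 10.48 and 10.52 in the same order. It was also lowest on ELA and higher with both inhibitors than on ES, but its rises were 2.15-fold with AZA and 2.21-fold with CHQ, and its fall from ES to ELA of -0.35 did not pass the size rule. The probes are read from intervals of the same strand that differ in position, and what sets the unlike sizes was not tested.

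Ephx2 encodes the soluble epoxide hydrolase, which acts mainly on epoxides of fatty acids. Its levels were 11.62 on ES, 10.01 on ELA, 13.23 on AZA and 11.29 on CHQ. AZA was the highest array, and CHQ lay near ES. Ephx2 was 3.07-fold lower on ELA than on ES, 9.37-fold higher with AZA and 2.44-fold higher with CHQ. Within the second slide it was 3.84-fold lower with CHQ than with AZA, in contrast to Ephx1 probe 2, whose difference between these arrays was -0.005.

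**Figure D2:**
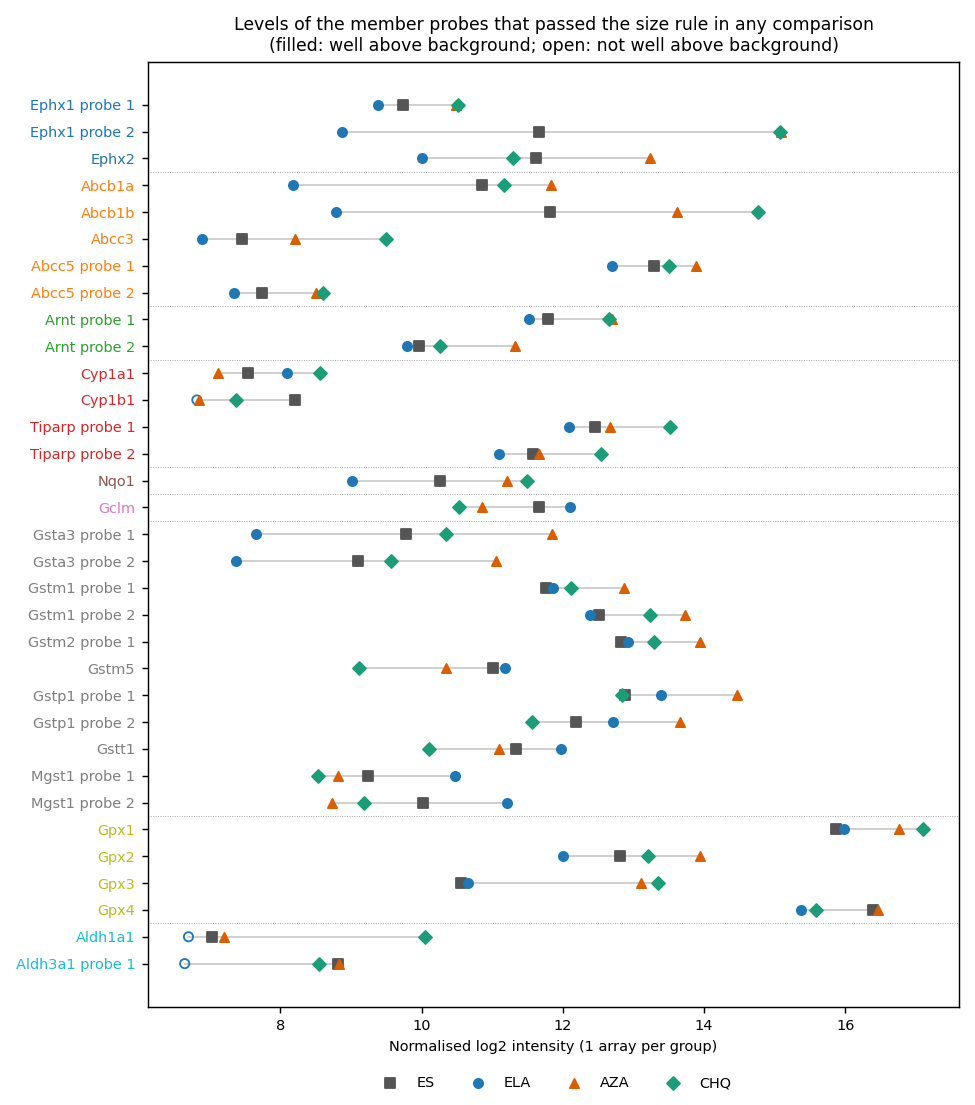
Normalised log2 intensity (x axis) of every member probe that passed the size rule in at least 1 comparison (rows, ordered and coloured by role), with 1 symbol per array and open symbols where a probe was not well above background. The ELA circle is the leftmost symbol for Ephx1, Ephx2, Abcb1a, Abcb1b, Nqo1 and Gsta3, and the rightmost for Gclm, Gstm5, Gstt1 and Mgst1.

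The P-glycoprotein genes fell from ES to ELA and rose with the inhibitors. Neither change is ranked among the efflux members. Abcb1b was selected on its rises over ELA, and the fall is read against that same ELA array. Abcb1b had levels of 11.82 on ES, 8.79 on ELA, 13.62 on AZA and 14.77 on CHQ. ELA was the lowest array and CHQ the highest. The fall from ES was 8.16-fold, and the rises over ELA were 28.4-fold with AZA and 63.1-fold with CHQ. Within the second slide Abcb1b was 2.22-fold higher with CHQ than with AZA, a difference that did not pass under 2 of 7 alternative normalisations. Abcb1a had levels of 10.86, 8.18, 11.83 and 11.17 on ES, ELA, AZA and CHQ. It was 6.41-fold lower on ELA than on ES, 12.6-fold higher with AZA and 7.98-fold higher with CHQ, and the AZA and CHQ arrays differed by -0.66, under the size rule.

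The multidrug resistance proteins of the Abcc group export glutathione conjugates and organic anions. Abcc3 had levels of 7.46, 6.88, 8.21 and 9.49 on ES, ELA, AZA and CHQ. Both inhibitor arrays lay above both untreated ones, with rises of 2.51-fold for AZA and 6.10-fold for CHQ over ELA, and CHQ was 2.43-fold above AZA. The level of Abcc3 on the untreated arrays is close to background, and its rise with AZA did not pass the rule under 5 of 7 alternative normalisations. In 4 of these its mean level came under the minimum while the difference was larger, up to 2.05, and with spike-in scaling the difference was 0.76. Abcc5 has 4 probes. Probe 1, spotted 10 times, read 13.29, 12.70, 13.88 and 13.51, and probe 2 read 7.75, 7.35, 8.51 and 8.61. The rise with AZA was 2.27-fold for probe 1 and 2.24-fold for probe 2, and that with CHQ was 1.75-fold for probe 1, under the rule, and 2.40-fold for probe 2. Probe 3 read 9.79, 9.62, 9.74 and 9.81 and probe 4 read 9.12, 8.80, 9.04 and 9.02. They differed from ELA by 0.12 to 0.24 log2 units with either inhibitor, so the 4 probes do not give the same size of change.

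Abcc1, Abcc4 and Abcg2 passed the rule in none of the 4 comparisons. Abcc1 read 11.30, 11.28, 11.93 and 11.97 on ES, ELA, AZA and CHQ, and Abcc4 stayed between 12.44 and 12.86. Abcg2, the pump that marks side-population stem cells by dye efflux, read 14.06, 13.54, 13.41 and 12.91. CHQ was its lowest array, with differences of -0.63 from ELA and -1.15 from ES. Rises and falls were not called for CHQ against ES, so the latter is given as a value only.

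Both P-glycoprotein genes lie in a row with Abcb4, the phospholipid flippase of bile, which is no member. Abcb4 is read 93.1 kb beyond the Abcb1b probe and had levels of 12.29, 9.42, 13.80 and 14.70 on ES, ELA, AZA and CHQ. Its differences of -2.88 from ES to ELA, 4.39 with AZA and 5.29 with CHQ lie beside those of Abcb1b, -3.03, 4.83 and 5.98. Within 200 kb of Abcb1b, Crot, a peroxisomal carnitine acyltransferase gene, rose by 1.03 with CHQ and read 0.46 with AZA. Gm5106, which is read between the Abcb1a and Abcb1b probes, read -0.50 and -0.66 and did not pass.

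Near Ephx1, 21 other probes with 16 names were read within 200 kb, 14 of them measured with each inhibitor. Of these, 4 rose with both: Lefty1, Lefty2, Tmem63a and BC031781. Lefty1 and Lefty2 encode secreted inhibitors of Nodal signalling. Lefty1, 51.5 kb from the Ephx1 probes, read 11.51 on ES, 7.90 on ELA, 14.06 on AZA and 11.59 on CHQ. Lefty2, at 90.7 kb, read 11.50, 9.11, 14.96 and 12.07. Tmem63a, at 14.6 kb, read 10.32, 8.78, 11.98 and 10.58. These 3 genes fell from ES to ELA as Ephx1 probe 2 did. Unlike Ephx1 probe 2, they were lower with CHQ than with AZA, with differences of -2.47, -2.89 and -1.40 for Lefty1, Lefty2 and Tmem63a. On the other side of Ephx1 the nearest measured gene was Nvl, at 112.9 kb, with -0.16 and -0.29.

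**Figure D3:**
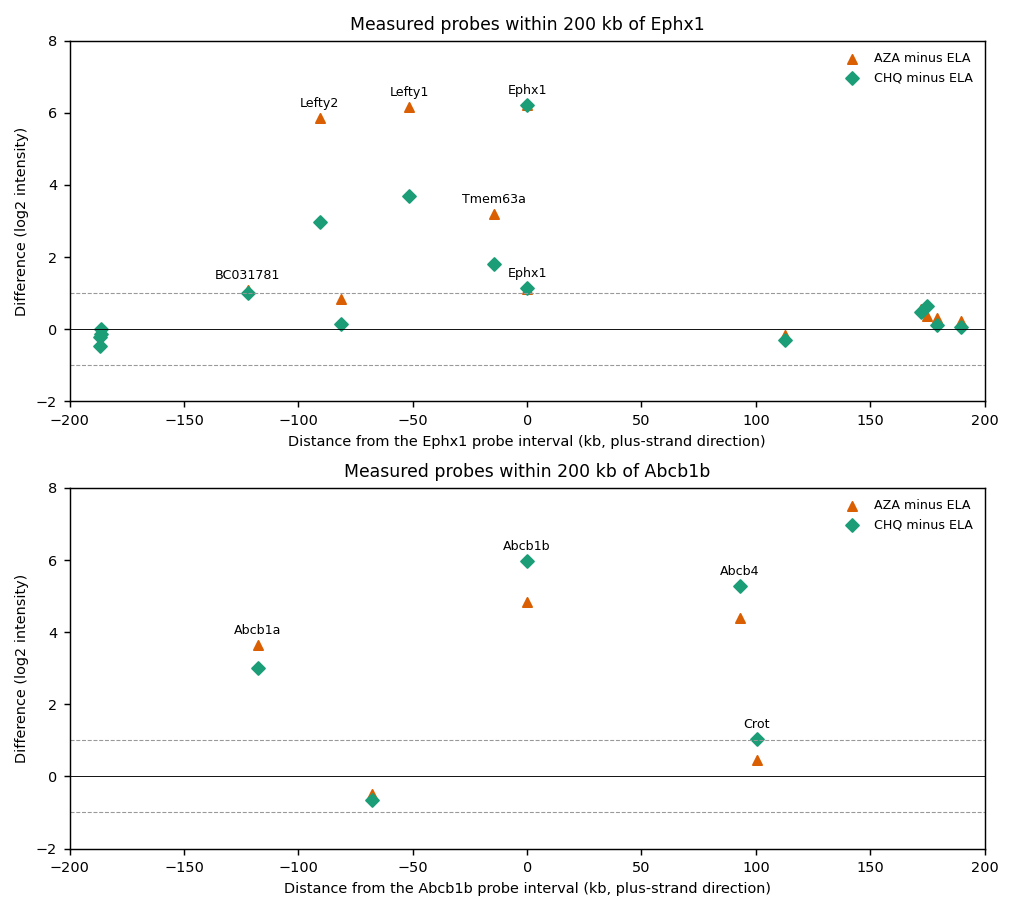
Difference from ELA in log2 intensity (y axis) with AZA (triangles) and CHQ (diamonds) for measured probes within 200 kb of the Ephx1 probes (upper panel) and of the Abcb1b probe (lower panel), against distance in kb. Tmem63a, Lefty1 and Lefty2 lie on one side of Ephx1 at 1.80 to 6.17, and Abcb1a and Abcb4 stand on either side of Abcb1b at 2.997 to 5.29.

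The aryl hydrocarbon receptor is a ligand-bound transcription factor. Its probe 1 read 10.94, 11.17, 11.06 and 11.45 on ES, ELA, AZA and CHQ, all within 0.51 log2 units, and probe 2, at 6.63, 6.30, 6.56 and 6.45, was too dim to be measured in any comparison. Its partner Arnt has 2 probes, which read 11.79, 11.52, 12.70 and 12.65 (probe 1) and 9.97, 9.80, 11.33 and 10.26 (probe 2). Both probes rose with AZA, by 2.26-fold and 2.88-fold. With CHQ probe 1 rose 2.18-fold and probe 2 differed by 0.46, and between the inhibitors probe 2 was 2.10-fold lower with CHQ. Ahrr, the repressor of the receptor, read 7.81, 7.65, 7.30 and 7.74 with probe 1, and its probe 2, at 5.97, 6.04, 6.09 and 6.14, was not well above background on any array.

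Of the receptor's targets, Tiparp, an ADP-ribosyltransferase that restrains the receptor, rose with CHQ and both of its probes gave the same size. Probe 1 read 12.45, 12.09, 12.67 and 13.52 on ES, ELA, AZA and CHQ, and probe 2 read 11.58, 11.10, 11.67 and 12.54. CHQ was the highest array for both, 2.69-fold and 2.72-fold above ELA. With AZA the differences were 0.58 and 0.57. Within the second slide, CHQ lay 0.84 and 0.88 above AZA, just under the rule.

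Cyp1a1, the best known target of the receptor, was dim throughout, at 7.54, 8.09, 7.12 and 8.55. It did not pass against ELA, where the differences were -0.97 with AZA and 0.46 with CHQ, and was 2.70-fold higher with CHQ than with AZA. That last difference did not pass under 4 of 7 alternative normalisations, where the mean level came under the minimum. The difference itself lay between 1.28 and 2.24 in all of them. Cyp1b1, which oxidises polycyclic hydrocarbons and oestrogens, read 8.20 on ES, 6.82 on ELA, 6.85 on AZA and 7.37 on CHQ. It was not well above background on ELA, so on this scale it was at least 2.61-fold lower there than on ES, and it was too dim to be measured with the inhibitors. That fall did not pass under 5 of 7 alternative normalisations, again through the minimum level, while the difference ran from -3.04 to -1.25, in part smaller than that bound.

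Nfe2l2, the gene of NRF2, read 13.10, 13.09, 13.59 and 13.58 on ES, ELA, AZA and CHQ. It lay 0.50 and 0.49 log2 units above ELA with the inhibitors, under the rule. Keap1, which holds NRF2 in check, read 11.70, 11.82, 12.03 and 11.41. NRF2 is controlled mainly through the stability of its protein, which these arrays do not measure.

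Among NRF2 targets of the redox response, 1 of 3 rose, where 14.1% of all probes rose with AZA and 14.2% with CHQ. Nqo1, a quinone reductase, read 10.27, 9.01, 11.20 and 11.50. It was 2.39-fold lower on ELA than on ES, and 4.58-fold and 5.62-fold higher with AZA and CHQ than on ELA. Txnrd1, thioredoxin reductase, read 14.93, 15.59, 15.52 and 15.95 and passed in none of the 4 comparisons. Srxn1, sulfiredoxin, read 12.52, 11.79, 12.79 and 12.27, and its difference of 0.99 with AZA fell just short of the rule.

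Other NRF2 targets were counted from a list of 20 genes outside the members. Of 18 genes measured, 0 rose with AZA or with CHQ and 1 fell, Blvrb, a biliverdin reductase, by 1.18 log2 units with CHQ. Their medians of 0.06 and -0.05 lay beside medians of -0.10 and -0.12 over all probes. Hmox1, haem oxygenase, which was named after its values were seen, read 14.05, 12.97, 13.13 and 13.14 with its brighter probe. That probe differed from ELA by 0.16 and 0.17 with the inhibitors, and the other Hmox1 probe by -0.509 and -0.265.

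Of 9 further genes tied to the aryl hydrocarbon receptor, 5 were measured with AZA and 6 with CHQ. With AZA 1 rose and 2 fell, and with CHQ 2 rose and 3 fell, with probe medians of -0.44 and -0.53. Several of the measured probes are of Ptges3, so these medians lean on that gene. Its probes differed from ELA by -0.44 to -0.85 with AZA and by -0.51 to -1.21 with CHQ. Polk, a DNA polymerase, read 9.33, 9.04, 10.60 and 11.16 with its brighter probe. Ugt1a6b, which joins phenols to glucuronic acid, read 6.50, 6.22, 7.95 and 10.04 with its brighter probe. CHQ was the highest array for that probe, which was not well above background on ES and ELA. The other Ugt1a6b probe was too dim to be measured in any comparison. Arnt2, a relative of Arnt, read 7.66, 8.78, 7.09 and 7.68 and moved against Arnt, with -1.69 and -1.10.

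Glutathione is made in steps by glutamate-cysteine ligase, whose catalytic and modifier subunits are Gclc and Gclm, and by Gss, and its oxidised form is recycled by Gsr. Gclm fell with both inhibitors. It read 11.66 on ES, 12.10 on ELA, 10.86 on AZA and 10.53 on CHQ, so both inhibitor arrays lay below both untreated ones. Its falls from ELA were 2.37-fold and 2.98-fold. Gclc read 13.36, 13.57, 13.47 and 14.21 and did not fall with it. Gss read 11.33, 10.50, 11.42 and 10.96, with differences of 0.92 and 0.46 from ELA. The probes of Gsr differed from ELA by -0.45 to 0.03 with the inhibitors, at 12.48 to 14.14 over all arrays.

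In a list of 23 other genes of glutathione turnover, 20 were measured with AZA, of which 4 rose and 1 fell. With CHQ 19 were measured, of which 4 rose and 2 fell. The probe medians were 0.31 and 0.42. Ggt6, a gamma-glutamyl transferase relative, rose by 3.18 and 3.71 with its brighter probe. Its other probe, at 0.396 and 0.570, was too dim to be measured. Anpep, an aminopeptidase that can cleave the cysteinylglycine left by such enzymes, rose by 2.00 and 2.59. Gpx6, a glutathione peroxidase relative, read 7.74, 7.29, 10.55 and 10.54.

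The glutathione S-transferases had probes that rose and probes that fell. Of 15 probes measured with AZA, 6 probes of 4 genes rose and 2 probes of 1 gene fell, beside 14.1% and 12.2% over all probes. Of 15 measured with CHQ, 2 probes of 1 gene rose and 5 probes of 4 genes fell, beside 14.2% and 12.7%. The median was 0.67 with AZA and -0.56 with CHQ. Between the inhibitors, 5 of 15 probes, of 3 genes, fell and 0 rose with CHQ, with a median of -0.75. Over all probes the same comparison had 4.63% falls.

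Gsta3, an alpha-class transferase known in mice for conjugating the epoxide of aflatoxin, rose most among the transferase members. Probe 1 read 9.78 on ES, 7.66 on ELA, 11.84 on AZA and 10.35 on CHQ. Probe 2 read 9.101, 7.37, 11.05 and 9.57. Both probes gave the order ELA, ES, CHQ, AZA. The falls from ES to ELA were 4.36-fold and 3.31-fold, the rises with AZA 18.2-fold and 12.8-fold and those with CHQ 6.47-fold and 4.58-fold. CHQ was 2.81-fold and 2.79-fold lower than AZA.

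The related Gsta1 and Gsta2 stayed near background and were too dim to be measured in any comparison. Their probes overlap in 50 bases with 46 identical and 4 mismatched, so their signals may be shared. A stretch of 30 bases is printed for each, with the mismatches in capitals.
Gsta1 probe, bases 2 to 31: tggcctctaatGgtttgcaattataaaaAG
Gsta2 probe, bases 12 to 41: tggcctctaatTgtttgcaattataaaaTA
Gsta2 read 7.002 on AZA and 6.64 on CHQ, where it was well above background, and 6.17 and 6.25 on ES and ELA. Gsta4, which clears the lipid peroxidation product hydroxynonenal, was read by 10 spots at 13.78, 13.33, 12.94 and 12.42 and passed in none of the 4 comparisons.

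The mu-class genes of chromosome 3 split. Gstm1 rose with AZA with both probes, which read 11.76, 11.87, 12.87 and 12.12 (probe 1) and 12.51, 12.39, 13.73 and 13.24 (probe 2). These are rises of 2.01-fold and 2.52-fold, and the differences with CHQ were 0.25 and 0.85. The file places probe 2 on chromosome 5 and not at the Gstm1 locus, so the transcript it reads is uncertain. Gstm2 has 3 probes, which read 12.82, 12.93, 13.95 and 13.29 (probe 1), 9.79, 9.96, 9.98 and 9.38 (probe 2) and 12.47, 12.58, 13.26 and 12.501 (probe 3). Probe 1 rose with AZA by 2.03-fold, while probes 2 and 3 differed by 0.02 and 0.67. With CHQ the differences of the 3 probes were 0.36, -0.59 and -0.08, and none passed. Gstm5 fell with CHQ. It read 11.01 on ES, 11.19 on ELA, 10.35 on AZA and 9.12 on CHQ, which is 4.19-fold lower with CHQ than on ELA and 2.34-fold lower than with AZA.

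Gstp1, the pi-class transferase, stood apart between the inhibitors with both probes. Probe 1 read 12.88, 13.39, 14.47 and 12.83 on ES, ELA, AZA and CHQ, and probe 2 read 12.18, 12.71, 13.66 and 11.56. AZA was the highest array for both, and CHQ was the lowest for probe 2. For probe 1 CHQ differed from ES by -0.051, less than the SD of repeat spots. Probe 1 rose 2.11-fold with AZA and probe 2 came to 1.93-fold, just under the rule. The rise of probe 1 did not pass under 75th percentile and spike-in scaling, at 0.688 to 0.929. With CHQ probe 2 fell 2.22-fold and probe 1 differed by -0.56. The fall of probe 2 came to -0.997, just under the rule, when the arrays were quantile-normalised within each slide. Within the second slide, CHQ was 3.1-fold and 4.28-fold lower than AZA. Gstp2, the neighbouring paralogue, read 15.41, 15.94, 17.12 and 15.46 with its brighter probe. A probe of Gstp2 shares 30 of 35 overlapping bases with Gstp1 probe 1, so these signals may be partly shared.

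Gstt1, of the theta class, read 11.34, 11.98, 11.10 and 10.11 and was 3.64-fold lower with CHQ than on ELA. Gstt2, outside the members, fell with both inhibitors, by 1.30 and 2.29 log2 units. Gsto1, of the omega class, read 13.53, 13.71, 14.16 and 14.47 and passed in none of the 4 comparisons.

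Mgst1, a transferase of microsomal and mitochondrial membranes, ran opposite to Ephx1 and Gsta3. Probe 1 read 9.24 on ES, 10.48 on ELA, 8.82 on AZA and 8.53 on CHQ. Probe 2 read 10.01, 11.21, 8.73 and 9.19. ELA was the highest array for both probes. Mgst1 was 2.35-fold and 2.29-fold higher on ELA than on ES, and it fell 3.16-fold and 5.59-fold with AZA and 3.84-fold and 4.07-fold with CHQ. Mgst2 read 6.96, 7.17, 9.06 and 8.16, so it did not share this fall. Among 14 other transferase genes, 3 rose and 4 fell of 12 measured with AZA, and 1 rose and 3 fell of 12 with CHQ, with probe medians of 0.06 and -0.49.

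Glutathione peroxidases reduce hydrogen peroxide and lipid peroxides with glutathione. Gpx3, the secreted form, read 10.56 on ES, 10.65 on ELA, 13.11 on AZA and 13.34 on CHQ. The untreated arrays lay together and so did the inhibitor arrays, 5.51-fold and 6.45-fold above ELA. From ES to ELA Gpx3 differed by 0.09, where Ephx1 probe 2 and Abcb1b had fallen. Gpx2, known from the gut epithelium, read 12.81, 12.01, 13.94 and 13.20 and rose 3.81-fold and 2.29-fold.

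Gpx1, the cytosolic form, read 15.86, 15.98, 16.76 and 17.09. Its rise of 2.17-fold with CHQ passed, and the 1.72-fold with AZA did not. Gpx4, which guards membrane lipids, read 16.40, 15.37, 16.46 and 15.59. It fell 2.04-fold from ES to ELA and rose 2.13-fold with AZA, and differed by 0.22 with CHQ. The rise of Gpx1 with CHQ and that of Gpx4 with AZA each lay under the rule in 3 of 7 alternative normalisations. The lowest log2 differences there were 0.137 for Gpx1 and 0.535 for Gpx4.

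Of 18 other peroxidase, thioredoxin and antioxidant genes, 17 were measured, with 2 rises and 4 falls with AZA and 2 rises and 3 falls with CHQ, and probe medians of -0.01 and -0.16. Txnip, which binds thioredoxin, rose by 2.55 and 3.12 with its brighter probe. Prdx6, a peroxiredoxin that reduces phospholipid peroxides, fell by 1.39, 1.52 and 1.87 log2 units with AZA in its 3 bright probes. Msra, a methionine sulfoxide reductase, fell by 1.80 log2 units with AZA and read 0.03 with CHQ.

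Aldh1a1 makes retinoic acid from retinal. It read 7.03 on ES, 6.70 on ELA, 7.21 on AZA and 10.05 on CHQ, so CHQ alone stood apart. The probe was not well above background on ELA, and CHQ was at least 9.88-fold higher on this scale. The difference in log2 intensity ran from 2.66 with spike-in scaling to 4.57 over the normalisations. Within the second slide CHQ was 7.16-fold above AZA, the largest difference of a member probe between these arrays. The minimal medium lacked vitamin A, the precursor of retinal, in its B27 supplement.

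Aldh3a1, which oxidises aldehydes of lipid peroxidation, is read by 2 overlapping probes that gave unlike results. Probe 1 read 8.81, 6.65, 8.82 and 8.55 and was not well above background on ELA, which on this scale makes it at least 4.20-fold lower there than on ES and at least 4.24-fold and 3.50-fold higher with AZA and CHQ, bounds that did not hold under every normalisation. Probe 2 read 10.80, 10.62, 10.92 and 10.56, with differences of 0.30 and -0.06 from ELA. The probes share 53 bases and are offset by 7, and their first 30 bases are printed with shared bases in capitals.
Aldh3a1 probe 1: CCTCTTGTTCTGCTGTTTGCTGAGCACAGA
Aldh3a1 probe 2: cctccccCCTCTTGTTCTGCTGTTTGCTGA
The probes differ in what they show although they share most of their bases, so the counts of probes include probe 1, but no direction is taken for Aldh3a1 as a gene. The call of probe 1 was also lost under 4 of 7 alternative normalisations with either inhibitor, through the minimum level, although its differences stayed between 1.59 and 3.29 with AZA and between 1.17 and 2.97 with CHQ.

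Of 17 other aldehyde dehydrogenase genes, 3 of 14 measured rose with AZA, and 3 rose and 1 fell of 15 measured with CHQ, with probe medians of 0.47 and 0.33. Aldh1l1, the folate enzyme that oxidises formyl-tetrahydrofolate, read 10.72, 10.88, 14.58 and 15.20, and Aldh4a1, of proline breakdown, read 12.48, 12.28, 14.14 and 14.86. Aldh1b1, a mitochondrial form, read 9.70, 9.61, 9.18 and 7.61.

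**Figure D4:**
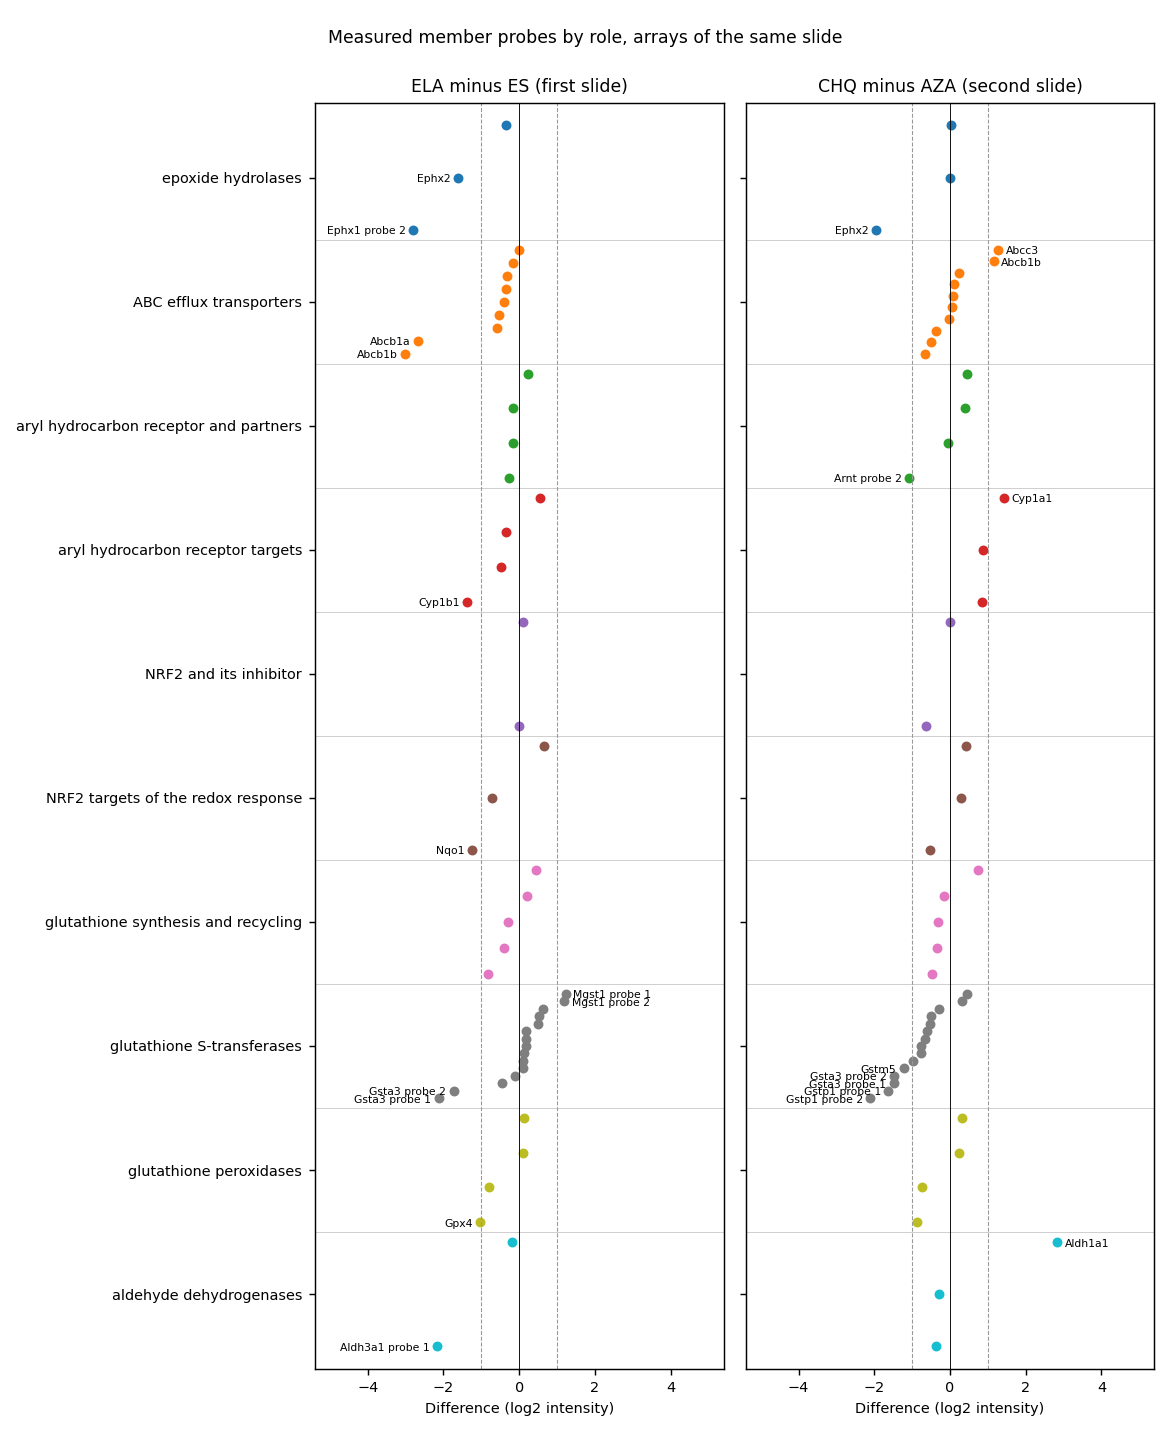
Difference in log2 intensity (x axis) of each measured member probe, by role (rows), for the pairs of arrays that shared a slide, ELA minus ES on the left and CHQ minus AZA on the right, with dashed lines at 1 log2 unit and names on probes that passed. On the left Abcb1b stands at -3.03, Ephx1 probe 2 at -2.79 and Abcb1a at -2.68. These falls are not ranked, since Abcb1b and Ephx1 were selected on rises over the same ELA array. On the right Aldh1a1 (2.84) rose most and Gstp1 probe 2 (-2.10) fell most.

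Members near the size rule show how it divides close values. With AZA, Gstm1 probe 1 at 1.00 and Gstm2 probe 1 at 1.02 stood just inside, and Srxn1 at 0.99 and Cyp1a1 at -0.97 just outside. With CHQ, Gpx1 at 1.12 and Arnt probe 1 at 1.13 were inside, and Gsta4 at -0.92 and Gstm1 probe 2 at 0.85 outside. From ES to ELA, Gpx4 at -1.03 and Mgst1 probe 2 at 1.20 were inside, and Gss at -0.83 and Gpx2 at -0.80 outside. Between the inhibitors, Arnt probe 2 at -1.07 and Abcb1b at 1.15 were inside, and Gstt1 at -0.99 and Tiparp probe 2 at 0.88 outside.

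Other families of foreign-compound enzymes and transporters were counted from lists outside the members. Of 38 other ABC transporter genes, 6 rose and 5 fell of 23 measured with AZA, and 6 rose and 2 fell of 22 with CHQ, with probe medians of -0.11 and -0.18. Beside Abcb4, Abca1, the cholesterol exporter, read 9.34, 6.41, 9.62 and 9.68, and was not well above background on ELA. Abca5, a lysosomal lipid transporter, read 7.23, 7.20, 8.14 and 8.66 with its brighter probe. Of 33 other oxidation and conjugation genes, 5 rose and 2 fell of 22 measured with AZA, and 3 rose and 1 fell of 20 with CHQ, with probe medians of -0.17 and -0.20.

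In that last list the largest change was that of a probe of Ces2e, a carboxylesterase. This brighter probe read 6.55 on ES, 6.001 on ELA, 9.54 on AZA and 13.20 on CHQ. It was not well above background on the untreated arrays. The other Ces2e probe read 5.961, 5.965, 6.151 and 6.937 and was too dim to be measured in any comparison. Cyp2s1, a cytochrome P450, read 12.48, 10.61, 13.96 and 12.89, lowest on ELA and highest on AZA. Sult1a1, a sulfotransferase, read 6.79, 6.17, 9.12 and 7.33 with its brighter probe and was not well above background on ES and ELA.

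Markers of other cell types were read beside these results, since in bulk RNA a change in the number of cells of a type and a change in RNA per cell cannot be told apart. Of 13 genes of primitive, visceral and parietal endoderm, 9, 7, 12 and 11 were well above background on ES, ELA, AZA and CHQ, and their summed intensity was 10030, 8435, 9288 and 9621 units. Within the list Gata6 read 6.41, 6.69, 8.06 and 9.89 and a probe of Sox17 6.37, 6.76, 7.76 and 9.51, so these were highest on CHQ as Aldh1a1 was. The list was mixed, as 3 of its genes rose and 3 fell with CHQ against ELA, the falls being Amn at -1.34, Dab2 at -1.34 and Foxa2 at -1.01. Ttr was not well above background on any array. Of 9 trophoblast genes, 7, 4, 6 and 7 were well above background, and the summed intensity was 139947, 97240, 35829 and 36162 units. Most of that sum came from Krt8 and Krt18, and Cdx2 was well above background only on ES. Tfap2c of this list went the other way with the inhibitors, at 12.65, 9.79, 11.90 and 13.23, and Krt7 rose by 1.31 with CHQ, so that 2 genes rose and 2 fell with CHQ. Of 9 fibroblast genes, 6, 6, 6 and 7 were detected in this way, with sums of 5909, 14527, 8435 and 3961 units. Of 5 fibroblast genes measured, 3 rose and 0 fell from ES to ELA. With AZA 1 of them rose and 3 fell, and with CHQ 0 rose and 3 fell. Of 6 mesoderm genes, 3, 3, 5 and 6 were well above background, with sums of 9278, 10552, 6350 and 6304 units. The 5 neural progenitor genes were well above background on all arrays apart from 1 gene on CHQ, with sums of 48008, 74474, 79355 and 55142 units. Otx2 made up most of each sum, and with AZA 0 genes of this list rose and 2 fell, Nes (-1.67) and Zic1 (-1.66 with its brighter probe). The other probe of Zic1 read -0.01 with AZA and rose by 1.75 with CHQ, and the list had 1 gene that rose and 2 that fell with CHQ. Markers of the labelled pluripotent cells moved as well. Of 15 probes of 8 genes, 0 rose and 6 fell from ES to ELA, 3 rose and 5 fell with AZA, and 2 rose and 4 fell of 14 measured with CHQ. A probe of Tdgf1 read 13.78, 9.51, 13.26 and 13.74, lowest on ELA as Ephx1 and Abcb1b were. The brighter probe of Nanog read 15.03, 12.53, 15.39 and 12.54, while its other probe fell with both inhibitors. Lin28a read 15.23, 15.78, 14.21 and 13.49 and fell with both. The part of such cells or cell states in the differences of the members was not tested.

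The scaling of the arrays bears on these sizes. When the arrays were scaled on 7 spike-in controls in place of quantile normalisation, the median over all probes became -0.58 for ELA against ES, -0.46 for AZA, -0.63 for CHQ against ELA and -0.21 for CHQ against AZA. The member medians then were -0.79, 0.42, 0.002 and -0.44. With this scaling the rises of Abcc5 probe 2, Arnt probe 1 and Ephx1 probe 1 with both inhibitors, of Abcc3, Abcc5 probe 1, Gstm1 probe 1, Gstm2 probe 1, Gstp1 probe 1 and Gpx4 with AZA, and of Ephx2, Gpx1, Gpx2 and Tiparp probe 1 with CHQ no longer passed. The rise of Mgst1 from ES to ELA went to 0.69 and 0.63 and did not pass either. No called member changed its direction under any of the 7 alternative normalisations.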

How the data were processed

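Per the file headers, the authors scanned 4 single-colour arrays (Cy3-labelled cRNA) and read the images in Agilent Feature Extraction 10.7.3.1. For each spot, the deposited files hold its mean intensity, that of the surrounding background and a processed intensity, without normalisation between arrays. The authors also deposited a table of log2 values, background-corrected and quantile-normalised with limma, which served as an alternative. It correlated at r = 0.9991 or more with values corrected by normexp without the offset described below, and its column medians were 6.21 to 6.25. Its correlation with the values used here was not computed.

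Here the mean intensity was corrected with normexp (offset 50) on the local background and quantile-normalised over the 4 arrays in limma 3.58.1 (R 4.3.3). Control spots and 188 to 523 outlier spots per array were then dropped, and repeat spots were averaged per probe as log2 values. There were 0 saturated spots. Of 55681 probes, 559 lacked a usable spot on at least 1 array. The normalisation and the limits on difference and mean level were run on simulated data with the scatter of repeat spots. The simulation held no slide or culture differences and left out the background limit, so it does not show that the calls are right. The members, the pathway and marker lists and the rules were chosen with earlier results of these data known. With 1 array per group no test across samples was possible, and precision is limited by the number of arrays. A probe not well above background has only a bound, taken as the higher of its own value and the lowest value well above background on that array. Apart from Hmox1 and Ptges3, at most 3 genes were named per pathway list. These had the largest difference with AZA or CHQ among genes with a probe that passed and the same sign in all measured probes. Their other probes need not have passed, and probes too dim to be measured were left out. Members with a called probe, and Ahr, Arnt, Ahrr, Nfe2l2 and Keap1, were named with all their values. Motifs were counted in the 250 bases before RefSeq starts (GRCm38.p6) with Python 3.11.15. Coordinates of probes are those of the array (mm9).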

Additional observations from a re-analysis of the deposited data

How the results depend on the processing

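Counts and medians of the member probes were recomputed under 7 other normalisations, 2 other filters on dim probes, a threshold of 2 log2 units and 1 probe per gene. Called in all 7 normalisations were 8 of 12 member probes for ELA against ES, 14 of 24 for AZA against ELA, 14 of 24 for CHQ against ELA and 9 of 11 for CHQ against AZA, and 0 called probes reversed. Spike-in scaling gave 21 called member probes for ELA against ES, all falls (18.2% of all probes then fell), and moved the member medians to -0.79 for ELA against ES, 0.42 for AZA and 0.002 for CHQ against ELA. The median for CHQ against AZA of -0.28 ran from -0.44 to -0.15 over the alternatives. With the threshold of 2 log2 units, 5, 10, 11 and 2 member probes passed in the 4 comparisons. No share over all probes is set beside these counts, so nothing is read from them. The remaining totals of called member probes stayed within 1.5 times those reported, but their split did not. Rises and falls went from 21 and 3 to 12 and 5 with AZA and from 18 and 6 to 11 and 9 with CHQ under spike-in scaling. For CHQ against AZA they went from 4 and 7 to 2 and 9 under spike-in and 75th percentile scaling. They were 4 and 4 there with 1 probe per gene, a setting without a share over all probes, so nothing is read from that count. Over all probes, 16.8% rose and 9.64% fell with AZA and 17% and 10.1% with CHQ under quantile normalisation within slides, and 13.6% and 19.8% with CHQ under 75th percentile scaling. No paired analysis was possible because each group has 1 array, and no replicate could be left out for the same reason. The dim probes of Abcc3, Cyp1a1, Cyp1b1, Aldh3a1 (probe 1) and Abcc5 (probe 2) lost calls under 1 to 5 normalisations, mostly because their mean level came under the minimum of 7.5. Their differences stayed at 1 log2 unit or more there, apart from spike-in scaling, which gave Abcc3 with AZA 0.755 and Abcc5 probe 2 0.686 with AZA and 0.655 with CHQ. Sizes of bright rises moved as well, with Ephx1 probe 2 between 5.83 and 6.55 for AZA against ELA and Abcb1b between 5.31 and 6.26 for CHQ against ELA over the normalisations.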
